A study of Mus musculus with 2 samples.

Results

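The genes described here are 10 genes used as markers of tissue macrophages, measured in fetal mouse gut. They are the complement subunits C1qa, C1qb and C1qc, the receptors Csf1r, Adgre1 and Mrc1, the signalling adaptors Tyrobp and Fcer1g, the actin-binding protein gene Aif1 and the lysosomal membrane protein gene Cd68. The members were fixed by symbol and matched by Ensembl identifier, and all 10 were found among 43346 Ensembl gene entries, with 24 of 103639 transcripts. Total RNA of intestine from B6NCrl mice at embryonic day 15.5 was sequenced in 2 libraries, which form 1 group. Library replicate 1 pooled 78 embryos of both sexes and replicate 2 pooled 62. No treatment, mutation or second age was part of the group, so levels are compared between genes and between the 2 pools, and no test between conditions could be made.

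Macrophages are phagocytes that enter fetal organs from the yolk sac and the fetal liver. Their survival depends on the receptor encoded by Csf1r, which binds the growth factors CSF1 and IL-34. Many of their surface receptors have no signalling tail of their own and pass signals through the adaptors DAP12 (Tyrobp) and the Fc receptor gamma chain (Fcer1g), which recruit the kinase SYK. C1q, assembled from A, B and C chains in equal numbers, binds dying cells and microbes and starts the classical complement pathway. In whole tissue, fewer cells of a type and less RNA per cell cannot be told apart.

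The tables hold 34406872 and 40669822 estimated reads for replicates 1 and 2, and the 10 genes drew 8025 and 9018 of them. Levels are in TPM, a measure of transcript abundance in which reads are divided by transcript length, so that genes can be compared. A count of 3 reads on a transcript of 1 kilobase corresponds to a TPM of 0.139 and 0.119. The gut markers Epcam (653 and 669) and Cdx2 (29.9 and 32.0) and the smooth muscle actin gene Acta2 (1251 and 1296) were present in both libraries. The labels number the pools as biological replicates, and the spread between them may hold dissection, pooling and preparation alike.

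A gene is called detected here where neither library has it below 1 TPM. All 10 macrophage genes passed, as did 34.6% of all gene entries and 62.7% of the protein-coding ones. The second share is the one to set beside the count of detected genes in each related list below. Their median was 23.6 in replicate 1 and 25.1 in replicate 2, beside a median of 5.06 over all 21474 protein-coding genes and of 17.8 over the coding genes that reached the limit. The 10 genes were chosen as known markers with earlier results in view, so these counts describe them and carry no test. From C1qb at the top to Adgre1 at the bottom the mean level spanned 11.9-fold.

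**Figure D1:**
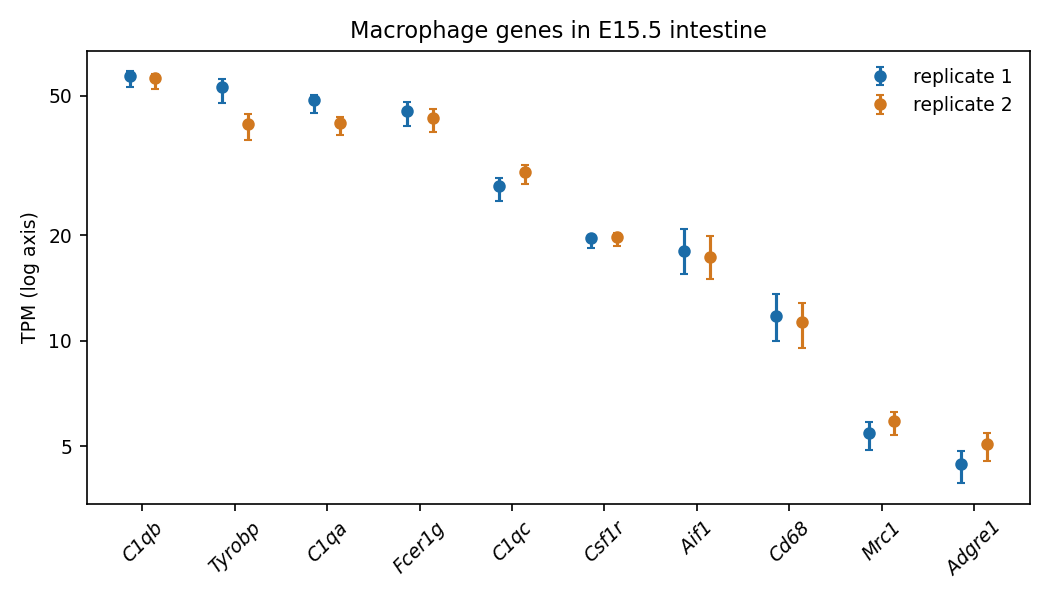
TPM of the 10 genes on a log axis in replicate 1 (blue) and replicate 2 (orange), ordered by mean level, with bars for the interval that the authors deposited for each TPM. C1qb, Tyrobp, C1qa and Fcer1g sit at or above 41.7 in both libraries, and Mrc1 and Adgre1 sit below 6.

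The C1q chains lie side by side on chromosome 4 (GRCm38), all on the minus strand: C1qb at 136880129 to 136886187, C1qc at 136889804 to 136893065 and C1qa at 136895917 to 136898803. C1qb (ENSMUSG00000036905.8) stood at 57.2 in replicate 1 and 56.3 in replicate 2, the highest level of the 10. C1qa (ENSMUSG00000036887.5) stood at 48.7 and 41.9, and C1qc (ENSMUSG00000036896.5) at 27.6 and 30.4. The chains kept the order B, A, C in both libraries, and their ranges did not overlap. C1qc mRNA amounted to 0.512 ± 0.0396 (SD, n = 2) of C1qb mRNA and C1qa to 0.798 ± 0.0766. The 3 messages were thus present at unequal levels in both pools. C1qa moved down and C1qc up between the libraries, so the ratio of C1qc to C1qa was 0.568 in replicate 1 and 0.726 in replicate 2. None of the 31-base words of the 3 genes occurs in a transcript of another gene, so their reads are not shared with a copy.

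The stretches upstream of C1qb and C1qc are shown because these neighbours lie on one stretch of chromosome and differ in level, and Cd68 is shown beside them as a member of lower level. Sequences come from the RefSeq promoter table (GRCm38.p6), which holds 6 of the 10 members (C1qb, C1qc, Mrc1, Aif1, Fcer1g, Cd68), cropped before the first annotated exon base. They lie on the minus strand at chr4:136886201-136886450, chr4:136893066-136893164 and chr11:69666171-69666420. Capitals mark matches to the core GAGGAA bound by PU.1 (encoded by Spi1) and to AGGAAGT, a word that overlaps this core but does not contain it. They also mark the Maf core TGCTGA and the AP-1 site TGAGTCA. All were searched on both strands.
C1qb: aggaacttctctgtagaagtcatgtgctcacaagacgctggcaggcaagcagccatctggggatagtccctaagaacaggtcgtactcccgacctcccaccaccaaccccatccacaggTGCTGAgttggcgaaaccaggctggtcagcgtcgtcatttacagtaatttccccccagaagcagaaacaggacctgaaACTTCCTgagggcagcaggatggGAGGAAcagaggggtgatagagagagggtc
C1qc: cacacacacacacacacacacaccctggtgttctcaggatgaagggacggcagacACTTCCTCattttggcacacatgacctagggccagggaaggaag
Cd68: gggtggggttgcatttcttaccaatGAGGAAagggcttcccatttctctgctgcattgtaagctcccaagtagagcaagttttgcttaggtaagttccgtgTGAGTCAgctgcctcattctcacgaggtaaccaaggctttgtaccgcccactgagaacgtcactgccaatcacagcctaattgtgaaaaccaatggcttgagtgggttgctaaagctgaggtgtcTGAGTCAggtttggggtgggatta

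The core GAGGAA was found in 4 of the 6 members (C1qb, C1qc, Cd68 and Mrc1), and in 23.3% of all 32851 windows of 250 bases in the table. AGGAAGT was found in 3 of the 6 (C1qb, C1qc and Mrc1) and in 7.69% of all windows. The C1qc match joins both into GAGGAAGT on the opposite strand, which 2.44% of windows hold. TGCTGA was found in C1qb alone (16.1% of windows) and TGAGTCA in Cd68 alone, with 2 matches (4.46% of windows). TATAAA was found in 0 of the 6 and in 12.4% of windows. The motifs were picked with these sequences in view and overlap each other, a match is not a bound site, and no binding was measured here. The member windows span 99 to 250 bases after cropping, so shorter ones had less room for a match. Spi1 itself stood at 7.35 and 6.62 TPM.

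Complement partners of C1q differed widely in level. The list of classical and central complement genes had 14 of 22 members detected, a share near the 62.7% of all protein-coding genes. A further 2 passed the limit in 1 library and 6 in neither, and the list's median was 2.03 TPM. The proteases that C1q activates were low, with C1ra at 3.21 and 3.68 and C1s1 at 4.44 and 4.86, and C1rb was listed at 0 in both libraries, where 3 counts would give 0.0537 and 0.0461. C1s2 (0.0200 and 0.0300) and the complement receptor genes Itgax (0.490 and 0.420) and Cr2 (0.110 and 0.0500) were below 1 as well. Inhibitors and surface regulators led instead: Cr1l, the rodent CR1-like regulator, stood at 64.0 ± 1.43, and Serping1, the C1 inhibitor gene, at 50.1 ± 0.177, followed by the protease gene C2 at 12.9 ± 0.608. C3 was the only gene of the list detected in both libraries that lay more than 1.5-fold apart between them, at 6.32 and 3.64 (log2 ratio -0.66). C4a (1.35 and 0.450, log2 ratio -0.70) and C4b (1.17 and 0.270, log2 ratio -0.77) were also lower in replicate 2, where both fell below the limit. The receptors C5ar1 (1.98 and 2.02) and C3ar1 (2.05 and 2.05) were close to 2 TPM in both. These genes are also made by epithelium, mesenchyme and vessels, so the list does not measure macrophages.

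Csf1r (ENSMUSG00000024621.11, chromosome 18, 61100598 to 61132149, plus strand) encodes the growth factor receptor of the lineage. It stood at 19.6 in replicate 1 and 19.8 in replicate 2, the smallest relative spread of the 10 genes in TPM, though not in CPM. By reads it was the largest member, with 2158 and 2315, because its mRNA is long. Of its ligands, Csf1 stood at 10.04 and 11.2 and Il34 at 2.17 and 0.910. Il34 was the only gene of the 16 in the receptor pathway list with a mean TPM of at least 1 that lay over 1.5-fold apart (log2 ratio -0.73, counting interval -0.99 to -0.42). The pathway list had 13 of 16 members detected in both libraries and a median of 8.79. It was led by the ubiquitous adaptor gene Grb2 (64.3 ± 0), the myeloid transcription factor gene Irf8 (40.1 ± 2.98) and Csf1r itself, whereas Csf2 (GM-CSF) and Csf3r (the G-CSF receptor) stayed below 1. Csf2ra, the alpha chain of the GM-CSF receptor, was at 19.6 and 16.5 but its partner Csf2rb only at 1.19 and 1.16.

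The libraries differed in the Csf1r transcript to which reads were assigned. Csf1r-202 was given all of the gene's TPM in replicate 1 and 49.7% in replicate 2, and Csf1r-201 took 0% and 50.3%. In TPM, Csf1r-201 was listed at 0 and 9.97, with deposited intervals of 0.000185 to 2.15 and of 7.51 to 11.7, which do not overlap. Both transcripts have the same coding bases. They share 3686 exonic bases, and Csf1r-201 has 184 of its own at the start while Csf1r-202 has 1015 of its own beyond the end of Csf1r-201. Of those 1015 bases, 873 (86.0%) also lie in exons of Hmgxb3, a gene on the opposite strand. Hmgxb3 stood at 9.77 and 9.71 TPM. No source used here says whether reads were counted by strand, so reads of the 2 genes in this stretch may be mixed and the Csf1r-202 share is uncertain. The mean transcript length used for Csf1r fell from 4701 to 4283 bases with this shift. On counts per library total (CPM), without division by length, Csf1r was 64.1 and 57.9, a log2 ratio of -0.14 after TMM scaling against 0.02 in TPM. Its direction between the libraries therefore depended on the length.

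Adgre1 (ENSMUSG00000004730.10, chromosome 17, 57358691 to 57483527), an adhesion receptor gene whose product is widely used to stain mouse macrophages, was the lowest of the 10. It stood at 4.45 and 5.06 TPM, on 335 and 444 reads. Mrc1 (ENSMUSG00000026712.3, chromosome 2, 14229392 to 14332057), which encodes the mannose receptor CD206, was next at 5.44 and 5.90, on 643 and 839 reads. The point estimates of the 2 genes did not overlap, and Mrc1 exceeded Adgre1 by 1.19 ± 0.0399-fold. In replicate 2 their deposited intervals did overlap, at 5.39 to 6.25 for Mrc1 and 4.53 to 5.45 for Adgre1. Csf1r exceeded Adgre1 by 4.16 ± 0.340-fold. Both surface markers were measured on at least 335 reads a library. Among detected protein-coding genes, 19.1% lay below Adgre1 and 22.5% below Mrc1, against 78.9% below C1qb. Adgre1-202 held 95.6% and 97.2% of Adgre1. Mrc1-201 held 89.8% and 94.5% of Mrc1, with the rest on Mrc1-202, annotated as a retained intron.

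The adaptors were near the top of the order. Tyrobp (ENSMUSG00000030579.9, chromosome 7, 30413760 to 30417585) stood at 53.0 and 41.7 TPM and Fcer1g (ENSMUSG00000058715.7, chromosome 1, 171229572 to 171234365) at 45.3 and 43.2. Tyrobp was higher than Fcer1g in replicate 1 and lower in replicate 2, with ratios of 1.17 and 0.965, so the 2 adaptors could not be ordered. Their ranges also overlapped with that of C1qa. Tyrobp has 1 transcript in the tables, and Fcer1g-201 held 96.8% and 99.4% of Fcer1g.

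Receptors that signal through these adaptors were far lower than the adaptors. Trem2, a lipid receptor that pairs with DAP12, stood at 3.94 and 3.52 TPM, Clec5a at 0.740 and 0.860 and Sirpb1a at 0.0200 and 0.0400. Among receptors that pair with the Fc receptor gamma chain, Fcgr3 was highest at 11.7 and 12.3, followed by Clec4n (dectin-2) at 4.20 and 4.74, Fcgr1 at 1.74 and 1.91 and Fcgr4 at 1.48 and 1.46. The related adaptor genes Hcst (1.61 and 1.80) and Cd247 (0.320 and 0.270), of which the second serves T and NK cells, were low, as were Trem1 (0.300 and 0.200) and Treml1 (0.330 and 0.530). The kinases downstream ranged from Lyn, at 20.4 ± 0.219, to Syk (2.88 ± 0.156) and Btk (1.28 ± 0.0141). Of 25 genes in the list of such receptors, adaptors and kinases, 18 were detected in both libraries and 7 in neither. Of all protein-coding genes, 62.7% were detected. The list had a median of 2.32, and 0 of its detected genes lay over 1.5-fold apart.

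Aif1 (ENSMUSG00000024397.10, chromosome 17, 35170991 to 35176068) encodes IBA1, an actin-bundling protein used to stain macrophages and microglia. It stood at 18.1 and 17.4 TPM on 237 and 303 reads. Cd68 (ENSMUSG00000018774.9, chromosome 11, 69664213 to 69666153) encodes a heavily glycosylated protein of the lysosome membrane. It stood at 11.8 and 11.3 TPM on 261 and 295 reads. For both genes the deposited intervals of the 2 libraries held each other's estimate. Cd68 amounted to 0.587 ± 0.0257 of Csf1r and Aif1 to 0.901 ± 0.0329.

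Both genes were split between a coding transcript and a shorter noncoding one. Cd68-201, with 6 exons, held 65.8% and 66.7% of Cd68. Cd68-203, annotated as a processed transcript without a coding frame, held 34.2% and 30.2% (32.2 ± 2.84%). It joins exon 1 directly to exon 3 and so lacks exon 2 (69665503 to 69665936), which supplies 434 of the 978 coding bases, a number that leaves a remainder of 2 when divided by 3. Cd68-203 has no exonic base of its own, so it is told apart by reads over that junction, and its deposited TPM intervals were wide, at 1.78 to 6.07 and 1.34 to 5.21. The junctions are shown with the bases after the joint in capitals, read from the GENCODE M21 transcripts.
Cd68-201: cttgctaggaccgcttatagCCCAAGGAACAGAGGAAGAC
Cd68-203: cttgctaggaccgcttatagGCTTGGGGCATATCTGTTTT

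Aif1-203, a coding transcript, held 48.0% and 68.7% of Aif1, and Aif1-205, annotated as a retained intron, 50.5% and 31.3%. The order of the 2 transcripts thus turned between the libraries. In TPM, Aif1-205 stood at 9.13 and 5.45 with deposited intervals of 5.86 to 12.1 and 2.42 to 8.32, which overlap. Aif1-205 begins with 54 bases that are intronic in Aif1-203, shared only with the low Aif1-204, and then covers the 3′ part of the gene. The posterior mean estimate gave Aif1-203 29.7% and 44.4%, and gave shares to transcripts that the TPM column listed at 0: Aif1-201 (10.2% and 17.2%), Aif1-206 (5.46% and 4.22%) and Aif1-202 (2.70% and 2.68%). The leading Aif1 transcript is therefore not fixed by these data. The joint at the shared exon is shown with that exon in capitals: the lower-case bases are the preceding exon in Aif1-203 and those 54 retained bases, in part, in Aif1-205.
Aif1-203: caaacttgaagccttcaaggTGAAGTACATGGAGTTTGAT
Aif1-205: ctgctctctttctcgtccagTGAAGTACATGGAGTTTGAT

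**Figure D2:**
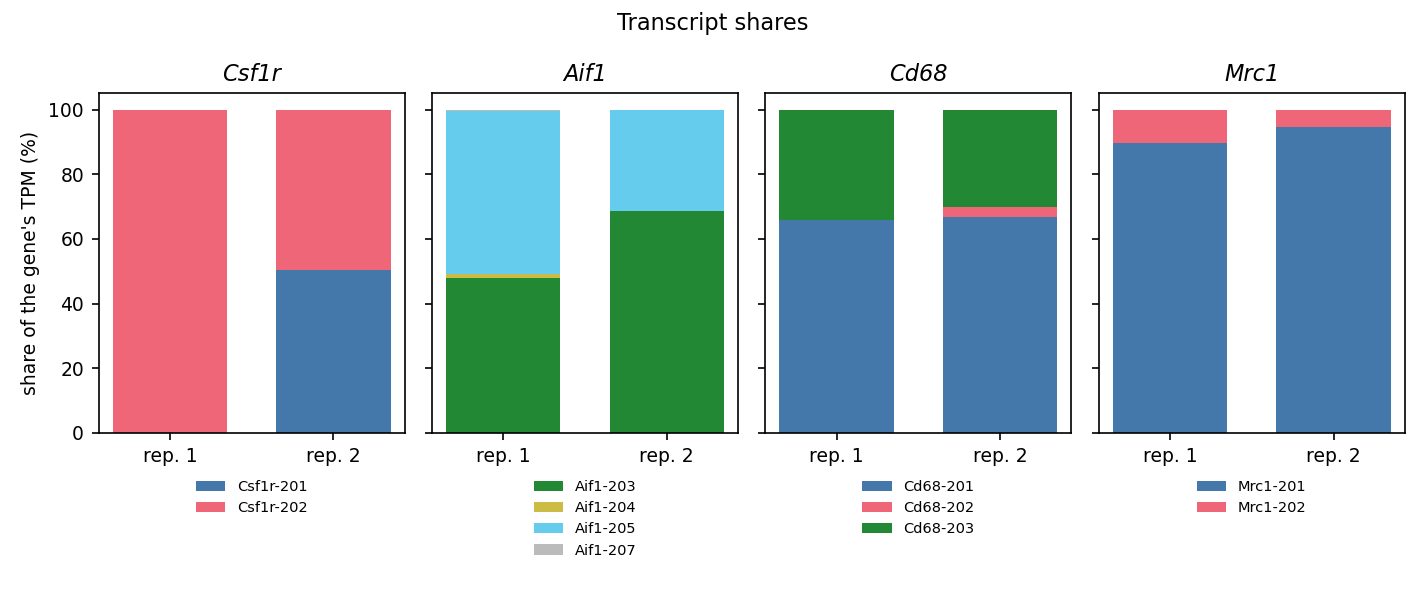
Share of each gene's TPM on its transcripts, in percent, for the 4 genes with the lowest mean share of the leading transcript, in replicate 1 and replicate 2. Csf1r-202 is the whole bar in replicate 1 and 49.7% in replicate 2, Aif1-205 is 50.5% and 31.3%, Cd68-203 is 34.2% and 30.2%, and Mrc1-201 is 89.8% and 94.5%.

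Of the 10 genes, 7 had a leading transcript with a mean share of at least 90%, and 3 of these (C1qa, C1qb and Tyrobp) have only 1 transcript in the tables. Noncoding transcripts, 7 of the 24, together took 5.09% and 3.42% of the members' summed TPM. The gene and transcript tables agreed within 0.0500 TPM for every member.

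Between the libraries, 0 of the 10 genes lay over 1.5-fold apart, against 2.23% of the 14986 detected genes (0.754% higher and 1.47% lower in replicate 2). Ratios were taken on TPM + 1, on which low genes appear to change less than they did. In replicate 2, 4 of the 10 were higher and 6 lower, with a median log2 ratio of -0.04 beside 0.021 over all detected genes. These directions are not firm: scaling to the spike-ins moved the median of all detected genes to 0.294 and put every member but Tyrobp above 0. Counts with TMM scaling, taken without division by length, put Csf1r at -0.14 and Aif1 at 0.12, with a median of 0.005 over all detected genes. The estimated lengths of these 2 genes differed between the libraries, at 4701 and 4283 bases for Csf1r and 646 and 723 for Aif1. The smallest spread in TPM was that of Csf1r (coefficient of variation 0.898%) and the largest that of Tyrobp (16.8%). The common biological coefficient of variation over genes, from edgeR, was 9.7%. With 2 libraries of 1 group no test of a single gene was possible.

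By TPM, Tyrobp and C1qa were the members whose difference exceeded counting error. Tyrobp had a log2 ratio of -0.34 (95% counting interval -0.50 to -0.17), and 92.1% of detected genes had a smaller ratio in size. C1qa had -0.21 (-0.33 to -0.09), and 78.7% of detected genes had a smaller ratio in size. The share of all detected genes whose counting interval leaves out 0 was not computed, so these calls have no background. With spike-in scaling they stood at -0.07 and 0.05, which is -0.37 and -0.24 relative to the median of all genes. The intervals of the other 8 included 0, among them Adgre1 at 0.15 (-0.02 to 0.33) and Fcer1g at -0.07 (-0.22 to 0.09). Such intervals are exact binomial ones for the split of reads, carried to the ratio of TPM + 1 with the estimated lengths taken as given. They cover counting error only, since they describe the split of reads and hold no spread between pools. No molecular identifiers are mentioned in the labels, so duplicate reads cannot be told apart and the intervals may be too narrow. For Csf1r, whose estimated length changed between the libraries, TMM-scaled counts gave -0.14, outside its interval of -0.06 to 0.10.

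**Figure D3:**
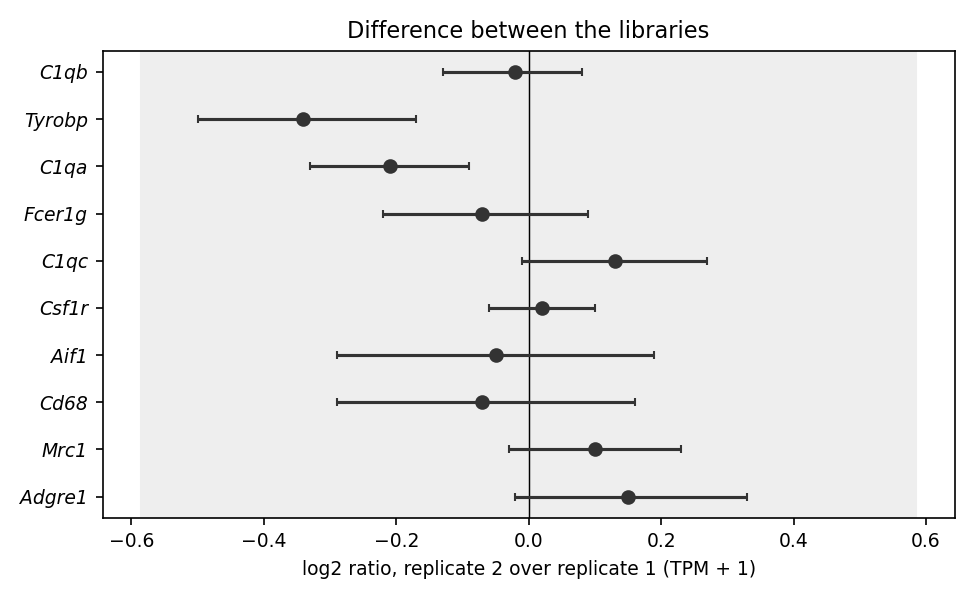
Log2 ratio of TPM + 1, replicate 2 over replicate 1, for each gene in order of level, with bars for the 95% counting interval and grey shading for differences under 1.5-fold. All 10 points lie inside the shading, and only Tyrobp and C1qa have intervals that leave out 0.

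Neutrophil genes moved in the direction of Tyrobp, which neutrophils also express. Of 12 neutrophil markers 8 were detected, a share near the 62.7% of all protein-coding genes. All 8 were lower in replicate 2 on TPM + 1, where the median log2 ratio of all detected genes was 0.021. For Prtn3 (-0.06, counting interval -0.44 to 0.36) and Retnlg (-0.17, -0.65 to 0.47) the interval included 0. The list's summed TPM was 107 and 66.8, and none of its markers was at 0. S100a8 stood at 49.7 and 32.9, S100a9 at 25.6 and 14.7 and the granule protein gene Ngp at 9.41 and 4.73. Over 1.5-fold lower in replicate 2 were 5 of the 8 (S100a9, Mpo, Ngp, Camp and Ltf), against 1.47% of detected genes. Elane, which fell below the limit in replicate 2, stood at 2.29 and 0.870, and the low Cxcr2 (0.290 and 0.200), Csf3r (0.700 and 0.920) and Mmp8 (0.550 and 0.780) did not share 1 direction. Fcer1g, which neutrophils express too, differed by only -0.07. The part of neutrophil RNA in the Tyrobp and C1qa differences was not tested.

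**Figure D4:**
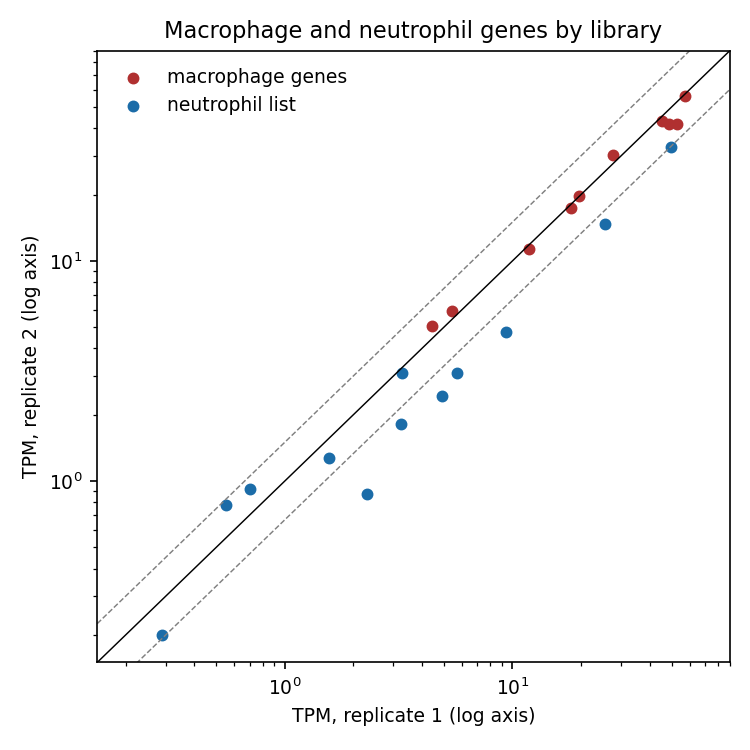
TPM in replicate 1 (horizontal) and replicate 2 (vertical), both on log axes, for the 10 macrophage genes (red) and the 12 neutrophil markers (blue), with the line of equal levels and dashed lines at 1.5-fold on plain TPM. The macrophage genes follow the line of equal levels, and most neutrophil markers lie below it.

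Markers of other cells that share the adaptors or Mrc1 were also present. Of 13 mast cell and basophil markers 6 were detected, with Kit (14.5 and 18.0), also a gene of the pacemaker cells of gut muscle, Cpa3 (3.25 and 4.09) and Gata2 (3.09 and 4.02) highest. The list had summed levels of 30.1 and 34.6, and Tpsab1 was listed at 0 in replicate 1. The protease genes of these cells were mixed: Cma1 (2.78 and 1.58) and Tpsb2 (1.57 and 1.57) were detected, as was Hdc, which makes histamine (2.53 and 2.51), while Mcpt1, Mcpt2, Mcpt4 and Mcpt8 were below 1. Of 14 NK and innate lymphoid markers 6 were detected, with summed levels of 17.7 and 17.0. Nkg7 (2.36 and 1.93) and Gzma (2.04 and 2.25) were among the 3 highest, and Ncr1, Klrb1c, Prf1 and Il7r were below 1. Of 12 platelet markers 6 were detected (54.2 and 55.3 in sum), with Pf4 highest at 41.5 ± 0.0424, a gene that fetal macrophages also express. Itga2b (2.76 and 4.30) and Gp1bb (2.27 and 2.59) came next, and Gp1ba, Gp5, Gp6 and Treml1 were below 1. Mrc1 is shared with lymphatic and sinusoidal endothelium, whose list had 8 of 12 detected, beside 62.7% of all protein-coding genes. The sums of that list were 121 and 128. In it Ccl21a stood at 73.5 ± 0.431, Pdpn at 21.8 ± 1.72 and Lyve1 at 12.1 ± 2.12, while the sinusoidal genes Stab2 and Clec4g, and Cd209b and Thy1, were below 1. How much of Mrc1, Tyrobp or Fcer1g came from these cells was not tested.

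General leukocyte genes were present at 14 of 15, with a median of 4.89. Lcp1, an actin-bundling protein gene, stood at 68.0 ± 0.530, Arhgdib at 37.2 ± 2.35 and Laptm5 at 33.1 ± 2.76. Ptprc, the pan-leukocyte gene CD45, stood at 4.54 and 5.25 TPM, close to Adgre1, and Was at 0.480 and 0.520.

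Genes of macrophage subsets were unevenly represented. In the resident fetal-type list 10 of 16 genes were detected, 2 passed the limit in 1 library and 4 in neither. The detected share was near the 62.7% of all protein-coding genes. The highest were Gas6 at 44.7 ± 3.82, Pf4 and Igf1 (39.9 ± 5.11), of which Gas6 and Igf1 are also made by mesenchyme. Of the more restricted genes, F13a1 stood at 12.6 and 13.8, Ms4a7 at 4.12 and 4.14 and Folr2 at 2.43 and 1.90, whereas Timd4 (0.660 and 0.620) and Cd163 (0.320 and 0.340) stayed below 1. Cbr2 was over 1.5-fold apart at 2.04 and 0.670. Cd209f stood at 0.0400 and 0.0700, and Cd209g was listed at 0, where 3 counts would give 0.127 and 0.109.

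The microglia-type list had 10 of 12 genes detected in both libraries. Tmem119 (49.8 ± 2.87) and Olfml3 (45.6 ± 1.77), both also made by other tissues, were among its 3 highest. The restricted members were lower, with the chemokine receptor gene Cx3cr1 at 9.07 and 8.06, Fcrls at 5.20 and 5.36 and P2ry12 at 1.48 and 1.51. In the monocyte list 12 of 14 were detected, and its leaders Plac8 (316 ± 36.6), Fn1 (67.0 ± 2.86) and Vcan (23.5 ± 3.08) are made outside the blood as well. Ccr2, the receptor by which monocytes enter tissue, stood at 4.15 and 4.17. Chil3 (0.460 and 0.200) was below 1. S100a4 was over 1.5-fold apart, at 6.80 and 3.68.

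Genes of antigen presentation by mature gut macrophages were detected at low to moderate level. Cd74, the class II invariant chain gene, stood at 29.4 ± 0.813, H2-Ab1 at 17.0 and 14.3, H2-Aa at 8.47 and 8.50 and H2-Eb1 at 4.96 and 4.79. Their regulator Ciita was at 0.220 and 0.290, and Cd209a at 0.180 and 0.130. Il10, the cytokine of adult gut macrophages, was listed at 0 in both libraries, where 3 counts would give 0.103 and 0.0888. In all, 9 of the 14 genes of this list were detected, a share near the 62.7% of all protein-coding genes. Cd81 (343 ± 1.15) and Tgfbr2 (29.0 ± 2.17), both widely expressed, were among its 3 highest. Dendritic cell markers were scarce, with 3 of 12 detected. These were Bst2 at 37.6 ± 1.43, Batf3 at 7.36 ± 1.98 and Zbtb46 at 6.08 ± 0.198, none confined to dendritic cells, while Flt3, Xcr1, Clec9a and Ccr7 were below 1.

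Of the macrophage transcription factors, 15 of 19 were detected in both libraries, with a median of 9.21. Id3 (231 ± 10.9), expressed in many fetal cells, Irf8 (40.1 ± 2.98) and Tfec (39.7 ± 1.19) led. Irf4, Runx3, Spic and Mitf were below 1, of which Spic, a factor of red pulp macrophages, was at 0.390 and 0.990. None of the detected ones lay over 1.5-fold apart.

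**Figure D5:**
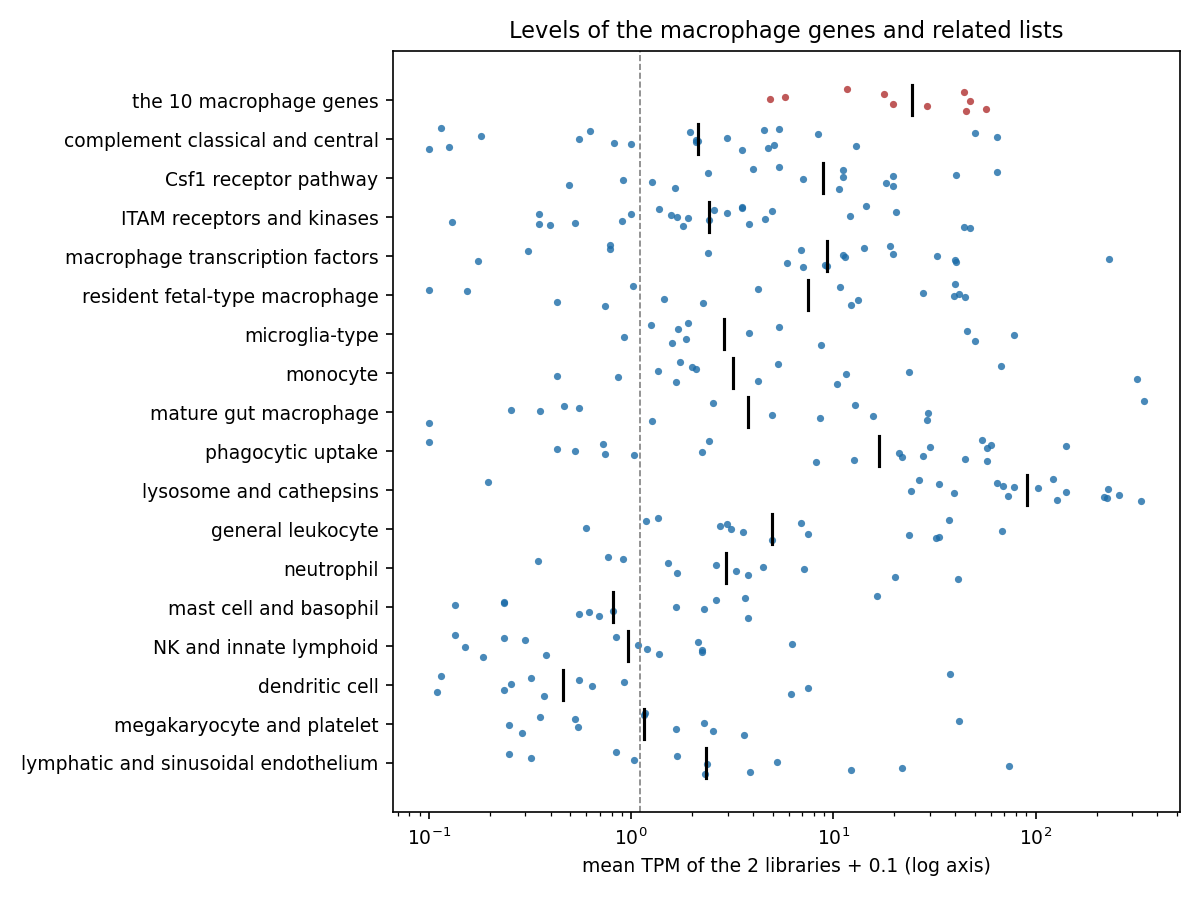
Mean TPM of the 2 libraries plus 0.1, on a log axis, for each gene (points) of the 10 macrophage genes (red) and of each related list (blue), with the list's median as a black bar and the detection limit as a dashed line. The 10 macrophage genes all lie right of the limit with a median of 24.4, and the dendritic cell list has the lowest median, 0.362.

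In order of mean level the genes were C1qb (56.7 ± 0.622), Tyrobp (47.3 ± 7.96), C1qa (45.3 ± 4.84), Fcer1g (44.2 ± 1.48), C1qc (29.0 ± 1.93), Csf1r (19.7 ± 0.177), Aif1 (17.7 ± 0.488), Cd68 (11.6 ± 0.403), Mrc1 (5.67 ± 0.325) and Adgre1 (4.75 ± 0.431). Of the 9 pairs of neighbours in this order, 2 had overlapping libraries, Tyrobp with C1qa and C1qa with Fcer1g. The point estimates of the other 7 were apart in both libraries, by 1.11-fold between Csf1r and Aif1 to 2.04-fold between Cd68 and Mrc1. The deposited Aif1 interval reached 20.9 in replicate 1 and 19.9 in replicate 2. It held the Csf1r estimate in each (19.6 and 19.8), so the order of Csf1r and Aif1 was not resolved. In replicate 1 alone, the interval of C1qb (52.9 to 58.8) overlapped that of Tyrobp (47.6 to 55.9). Mrc1 and Adgre1 overlapped in replicate 2 alone, as given above. With 2 libraries there is no pattern across samples, so genes of like pattern could not be sought.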

How the data were processed

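RNA from 2 pools of E15.5 B6NCrl mouse intestine was measured by total RNA-seq with ERCC spike-ins, from 10 ng of RNA and fragments over 200 nucleotides, per the labels' protocols. The authors deposited expected counts (estimated reads, not whole numbers), TPM scaled over all entries including spike-ins, and bounds of an interval for TPM, treated as a score of unstated level, per the file headers. Deposited transcript tables add each transcript's percent of its gene, per the file headers. A readme deposited with the tables names GENCODE M4 on mm10. No source used here names the quantifier or its strand setting. Effective length equals length minus 99 bases in the tables for transcripts of at least 200 bases. Spike-ins held 2.16% and 1.76% of counts and entries without a gene name 0.000163% and 0.000150%, and both stayed out of gene comparisons.

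Symbols came from GENCODE M21 (GRCm38) by identifier without version, for 42462 entries (98.0%). Of the members' 24 transcripts, 23 have the same length in M21 as in the tables. Detection means 1 TPM or more in each library. Ratios are log2 of TPM + 1. Counting intervals are 95% exact binomial (Clopper-Pearson) intervals on rounded counts, checked on simulated data. The common coefficient of variation came from edgeR 4.0.16 (R 4.3.3) on rounded expected counts of 17590 genes, and DESeq2 1.42.0 gave size factors only. Shared sequence was searched as 31-base words on both strands of M21 transcripts. The members and 17 related lists were chosen with earlier results of these data known. Named genes are the members and, per list, the 3 highest, up to 4 below a TPM of 1 and up to 3 over 1.5-fold apart. A few genes that the rule names are not reported here. Genes named for their pathway role beyond this rule were chosen after their values were seen. Alternatives covered the estimate, scaling, pseudocount, detection limit and each replicate.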

Additional observations from a re-analysis of the deposited data

How the results depend on the processing

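The limits are 2 libraries of 1 group, so no gene was tested, and transcript estimates that rest on few distinguishing bases. No paired analysis was possible because there is 1 group and no contrast. The difference between libraries and the coefficient of variation cannot be computed without 1 of the 2 libraries. In all 7 settings run for the difference, 0 members lay over 1.5-fold apart. A count of 7 members had a leading transcript share of at least 90% under each estimate and replicate, but not the same 7: without replicate 2, Mrc1 was at 89.8% and Csf1r-202 held its whole gene. The median level was 23.9 by posterior mean TPM, 26.4 after rescaling TPM over nuclear genes without ribosomal RNA, and 23.6 to 25.1 with either replicate left out. The share of genes over 1.5-fold apart rose from 2.23% to 3.60% over the 25316 genes with any count. Of 240 different genes in the related lists, 167 were detected, 185 at a limit of 0.5 TPM, 93 at 5 TPM and 168 to 175 with either replicate left out. All 10 members were detected in each of these but the limit of 5 TPM, which 9 passed. The order depended on length: by CPM only 1 member (C1qa) kept its place and Csf1r came first, whereas posterior mean TPM kept all 10 and a single replicate 8 to 10. Spike-in scaling moved the median log2 ratio of all detected genes to 0.294. Relative to that shift Tyrobp was at -0.37, C1qa at -0.24 and Csf1r at -0.14, while before it C1qa read 0.05. For single genes, 31 of 40 alternative levels stayed within the replicate spread and 48 of 60 alternative ratios within the counting interval. Of the other 12 ratios, 10 were those under spike-in scaling. Among transcript shares 3 moved beyond the replicate spread. With 2 libraries, a level or share with 1 replicate left out cannot leave that spread, which is the SD. Those settings were bound to stay, so the counts for levels and shares overstate how stable the values are. For detection, 10 counts of detected genes per list moved by over 1.5 times, all at the limit of 5 TPM.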

Other observations

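Genes for the uptake and digestion of dying cells were abundant, though few of them are particular to macrophages. Of 18 lysosome and cathepsin genes 17 were detected in both libraries, with a median of 90.1 TPM, led by Lamp1 (333 ± 3.93), Ctsd (258 ± 26.5) and Ctsz (227 ± 28.8). Gpnmb, a gene of lipid-laden macrophages, was the exception at 0.110 and 0.0800. Cd68 at 11.6 ± 0.403 thus stood below each of the 17, whose lowest was at 24.1. Of 20 phagocytic uptake genes 14 were detected, beside 62.7% of all protein-coding genes. The median of these 20 was 16.7, beside 5.06 over all protein-coding genes. The bridging protein gene Mfge8 (141 ± 0.233) and the receptor genes Lrp1 (59.8 ± 5.58) and Itgav (57.6 ± 9.31) were highest. Among the receptors of dying cells that macrophages use, Axl stood at 58.0 and 56.8 and Mertk at 8.39 and 7.89, while Timd4, Marco, Cd163 and Stab2 were below 1. None of the detected genes of either list lay over 1.5-fold apart.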
